A study of Mus musculus with 11 samples.

Results

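The genes of the MHC class II pathway described here are 10 genes chosen by symbol: the transactivator Ciita, the invariant chain Cd74, the classical chains H2-Aa, H2-Ab1 and H2-Eb1, the peptide-exchange chaperone genes H2-DMa, H2-DMb1 and H2-DMb2, and the modulator genes H2-Oa and H2-Ob. They are 10 of 34745 genes in the deposited table. All 10 were among the 10938 genes with an FPKM (fragments scaled to transcript length and to the library's total) of at least 1 in at least 2 libraries, and all 10 reached that level without the libraries given IFN-gamma alone.

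Total RNA was sequenced from microglia, the resident macrophages of the brain, isolated from cerebra of 6 to 8 week old C57BL/6 mice. All groups, Control included, were kept 10 to 14 days in culture in the presence of the growth factors TGF-beta1 (5 ng/ml) and M-CSF (10 ng/ml). There were 11 libraries in 4 groups. The Pam3CSK4+IFN-gamma group (the combined group, n = 3) was given 100 ng/ml Pam3CSK4 for 24 h, followed by 20 ng/ml IFN-gamma, also for 24 h. The IFN-gamma group (n = 3) received only the cytokine, the Pam3CSK4 group (n = 2) only the lipopeptide, and the Control group (n = 3) neither. Pam3CSK4, a synthetic lipopeptide, is an agonist of Toll-like receptor 2 (TLR2), and IFN-gamma is the cytokine of activated T and NK cells. The labels do not say whether Pam3CSK4 was removed before IFN-gamma, nor at what time cells of the Control and Pam3CSK4 groups were collected. In a label field of combined replicates 2 and 3 the agonist's name ends in another digit, and they were taken as the same treatment by their titles. The labels do not say whether replicates came from separate cultures or animals, so p-values measure only the spread between these libraries.

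MHC class II molecules are heterodimers of an alpha and a beta chain that present peptides from endosomes to CD4+ T cells. The invariant chain Cd74 fills their groove and guides them to endosomes, where H2-DM removes its last fragment, CLIP, and edits the bound peptides, while H2-DO restrains H2-DM. Ciita does not bind DNA itself. It is recruited to an assembly of RFX, CREB and NF-Y factors on X and Y elements upstream of class II genes, and in macrophages and microglia it is known as the switch through which IFN-gamma turns the pathway on.

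The X and Y elements are shown first because Ciita is known to act through them. RefSeq promoter windows, which run from 250 bases before to 50 bases after a start on GRCm38.p6, were found for 7 of the 10 members. H2-Aa, H2-Eb1, H2-DMb1, H2-DMb2, H2-Oa and H2-Ob held the X letters CNNNNAAC followed, 20 to 30 bases later along the gene, by the Y letters TGATTGG. H2-DMa did not, but its windows, at 34122582 and 34125268 on chromosome 17, begin upstream of the start of H2-DMa in the deposited table, 34135182. Both strands of 32851 windows were searched, the pair allowing no overlap of X with Y. X alone was in 81.6% of the windows, Y alone in 7.82%, and the pair in 0.277%, or in 0.122% when read along the gene only. The letters were chosen after these promoters had been read, so the shares are a description. The stretches below run 5′ to 3′ along each gene, with the X and Y letters in capitals, and include H2-Eb2, a class II gene of the same locus that is no member.
H2-Aa, chr17:34287857-34287917, minus strand: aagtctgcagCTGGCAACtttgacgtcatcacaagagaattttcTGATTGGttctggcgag
H2-Eb1, chr17:34305763-34305822, plus strand: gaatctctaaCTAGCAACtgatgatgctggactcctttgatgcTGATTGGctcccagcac
H2-DMb2, chr17:34145113-34145173, plus strand: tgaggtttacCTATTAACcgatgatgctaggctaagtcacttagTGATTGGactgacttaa
H2-Oa, chr17:34092290-34092350, plus strand: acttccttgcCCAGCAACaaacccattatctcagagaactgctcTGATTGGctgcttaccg
H2-Ob, chr17:34238805-34238862, plus strand: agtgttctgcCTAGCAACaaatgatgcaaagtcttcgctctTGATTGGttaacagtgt
H2-Eb2, chr17:34325530-34325589, plus strand: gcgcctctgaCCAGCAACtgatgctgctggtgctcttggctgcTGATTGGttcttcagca

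In the 6 members with the pair, X and Y were 23 to 26 bases apart, and X began 79 to 126 bases before the RefSeq start. H2-Aa, H2-DMb1, H2-DMb2 and H2-Oa all had 26 bases between them, H2-Eb1 had 25 and H2-Ob 23. H2-Eb1 and H2-Ob both carry the pair, and their log2 changes in IFN-gamma against Control were 10.07 and 0.29. The H2-DMb2 stretch lies past the start of that gene in the deposited table, 34143307. The H2-DMb1 stretch, with 61 bases in exons of the GENCODE M21 annotation, is not printed.

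**Figure D1:**
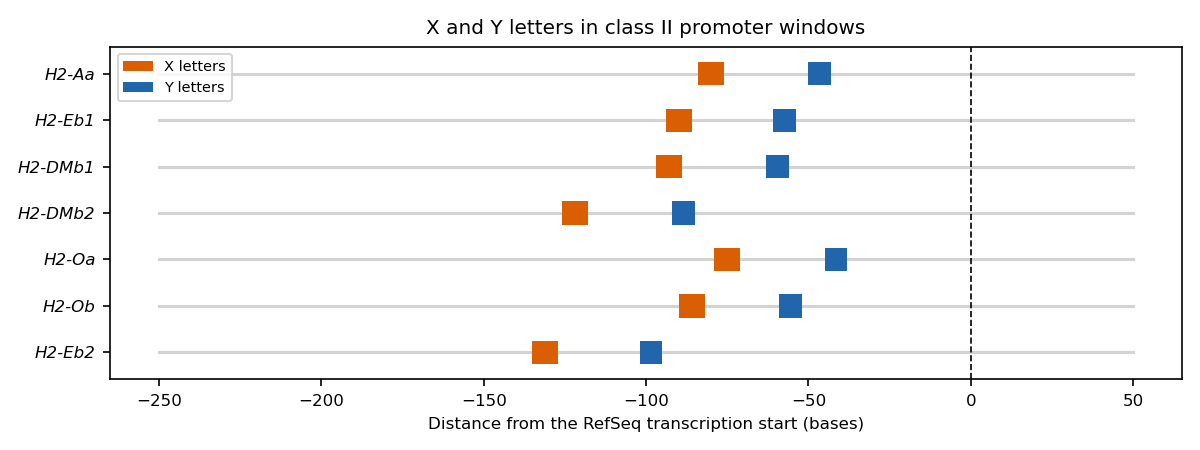
Position of the X letters (orange) and Y letters (blue) in the RefSeq promoter windows of H2-Aa, H2-Eb1, H2-DMb1, H2-DMb2, H2-Oa, H2-Ob and H2-Eb2, in bases from the transcription start, which is the dashed line at 0. The grey line is the window, and in each gene X lies farther from the start than Y, with 23 to 26 bases between them.

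The libraries held 15033702 to 20321017 counts, with 15730 to 18185 genes counted. All 8 microglial markers examined, Sall1, Tmem119 and P2ry12 among them, reached 1 FPKM in every group, with summed levels of 2058 to 2149 FPKM in the combined group, 3674 to 3810 in IFN-gamma, 2540 to 2735 in Pam3CSK4 and 4146 to 6259 in Control. Transcripts of mural cells and fibroblasts were high in 3 libraries. Their mean log2(FPKM + 1) over 9 markers was 1.92 in combined replicate 3, 2.83 in IFN-gamma replicate 1 and 5.10 in Control replicate 3, against at most 0.435 elsewhere. Control replicate 3 was also the lowest Control library for every member except Ciita and Cd74. These are bulk samples, in which fewer cells of a type and less RNA per cell cannot be told apart.

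Other cells that carry class II were sought by their markers. Of 6 B cell markers only Cd79b reached 1 FPKM, and Pax5 had 1 count in all libraries. The summed level of the B cell list was 2.01 to 2.34 FPKM in the combined group, 0.267 to 0.748 in IFN-gamma, 5.13 to 7.02 in Pam3CSK4 and 0.776 to 1.39 in Control. Of 6 genes listed as dendritic cell markers only Clec9a and Siglech reached 1 FPKM, and Cd209a had no count. That list summed to 1.32 to 1.87 FPKM in the combined group, 9.56 to 11.2 in IFN-gamma, 1.16 to 1.61 in Pam3CSK4 and 4.30 to 10.0 in Control. In Control the sum was mostly Siglech, so it cannot be read as an amount of dendritic cells. Of 5 markers of border macrophages only 2 reached 1 FPKM, with summed levels of 4.38 to 6.95 FPKM in the combined group, 0.594 to 2.52 in IFN-gamma, 7.12 to 8.15 in Pam3CSK4 and 5.84 to 11.9 in Control. None of 6 T and NK cell markers did, and Cd3e, Cd3d, Cd3g and Nkg7 had no count. The dendritic cell receptor gene Clec9a moved with the class II genes, averaging 0.178 FPKM in the combined group, 6.08 in IFN-gamma, 0.0294 in Pam3CSK4 and 0.147 in Control. Its part in the result was not tested. None of the other markers of the dendritic cell list was highest in IFN-gamma. Siglech and Zbtb46 were, like Clec9a, lower in the combined group than in IFN-gamma, while Xcr1 and Flt3 were higher. Siglech averaged 0.568 FPKM in the combined group, 3.53 in IFN-gamma, 0.858 in Pam3CSK4 and 7.51 in Control. Below 1 FPKM, Xcr1 was highest in the combined group, Zbtb46 in Control and Flt3 in Pam3CSK4.

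IFN-gamma alone gave the highest class II transcript levels, and prior Pam3CSK4 brought them to between 2.86 and 20.3% of that. In the combined group against IFN-gamma all 10 genes fell, among 34.2% of all tested genes called in either direction and 17.2% called lower, with a median log2 change of -4.30 against -0.02 over all tested genes (edgeR quasi-likelihood test with Benjamini-Hochberg adjustment, as in all tests below). In IFN-gamma against Control 9 of the 10 rose and H2-Ob was not called, among 41.6% of genes called, 20% higher and 21.6% lower, with a median of 4.01 against -0.07. In Pam3CSK4 against Control 6 fell and none rose, among 41.4% called and 21.4% called lower, with a median of -1.24 against -0.04. By both DESeq2 and limma on log2(FPKM + 0.1), 1 member, H2-Eb1, rose in that comparison. The unadjusted edgeR p of H2-Eb1 was 0.0412, the only one under 0.05 among the members that were higher.

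Most class II genes still rose with IFN-gamma after Pam3CSK4. In the combined group against Pam3CSK4, 8 of the 10 rose and H2-DMb1 and H2-Ob were not called, among 9.1% of genes called, 6.06% higher and 3.04% lower, with a median of 1.87 against -0.00. The combined group against Control split the pathway. Ciita, Cd74, H2-Aa, H2-Ab1 and H2-Eb1 were higher, and H2-DMa, H2-DMb2 and H2-Ob were lower, among 47.6% of genes called, 23.4% higher and 24.2% lower. The median was 0.60 against -0.04.

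**Figure D2:**
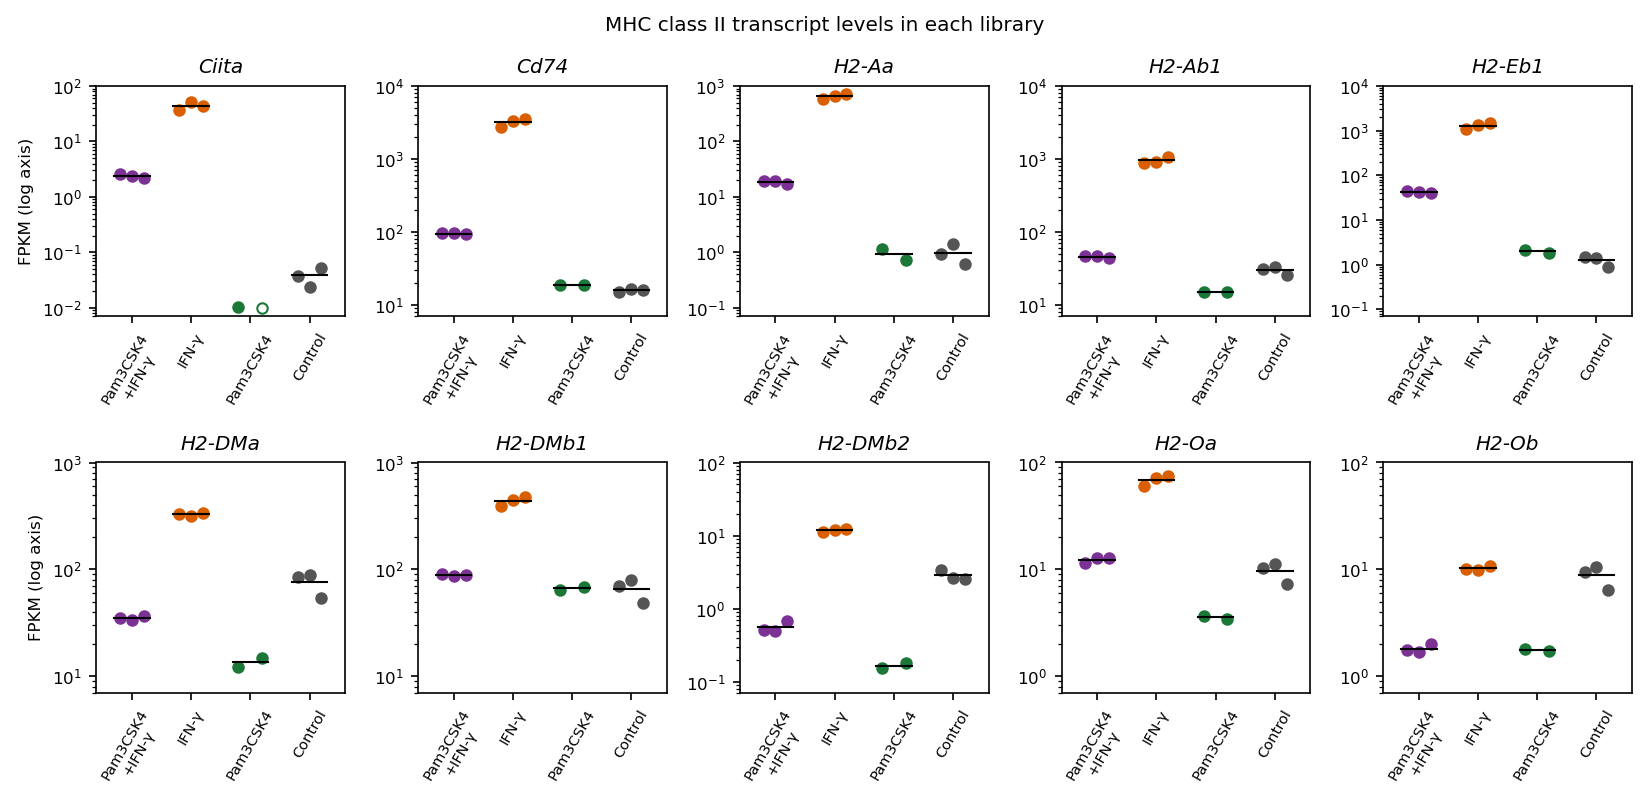
FPKM (log axis, a separate range for each gene) of the 10 class II genes in each library of the Pam3CSK4+IFN-gamma, IFN-gamma, Pam3CSK4 and Control groups. Points are libraries, bars are group means, and the open point is the Pam3CSK4 library with no Ciita count. IFN-gamma libraries lie above all others for each gene except H2-Ob, where they overlap with Control.

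Ciita (ENSMUSG00000022504, chromosome 16, 10488178 to 10527564 on mm10), the master coactivator of class II transcription, was almost silent without IFN-gamma. Its level was 2.60, 2.37 and 2.23 FPKM in the combined libraries, 36.4, 50.9 and 43.8 in IFN-gamma, 0.0104 and 0 in Pam3CSK4, and 0.0380, 0.0241 and 0.0532 in Control. No pair of groups overlapped. The levels without IFN-gamma rest on 1 and 0 counts in Pam3CSK4 libraries and on 3, 2 and 5 in Control libraries, against 229 to 276 in combined libraries and 3174 to 4996 in IFN-gamma libraries.

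Ciita averaged 5.50% of its IFN-gamma level in the combined group, a log2 change of -4.20 ± 0.20 (SE, adjusted p = 7.36e-07). It stood 10.20 ± 0.28 higher on the log2 scale in IFN-gamma than in Control (adjusted p = 2.85e-08) and 6.00 ± 0.27 higher in the combined group than in Control (adjusted p = 3.18e-07). For the groups with few counts the ratio of counts is the plainer measure, since a fitted change there depends on the prior count. The combined group held 758 counts and the Pam3CSK4 group 1, a ratio per library total of 427 with a 95% interval of 76.4 to 16897. The Pam3CSK4 group held 1 count and Control 10, a ratio of 0.144 with an interval of 0.00332 to 1.01, and both intervals cover counting error only. The fitted fall of Ciita in Pam3CSK4 against Control, -2.53 ± 0.68 (adjusted p = 0.0436), was lost under most alternatives, among them DESeq2 (adjusted p = 0.117) and leaving out Pam3CSK4 replicate 2 (adjusted p = 0.250). The counting interval of that ratio reaches past 1.

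Ciita overlaps Dexi on the opposite strand, and the strand setting of the counting is not given in the sources used here. Of the 50-base stretches of Ciita 0.269% are shared with Dexi. Dexi averaged 5.14 FPKM in the combined group, 6.72 in IFN-gamma, 3.25 in Pam3CSK4 and 3.71 in Control, a far smaller range than that of Ciita.

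Cd74 (ENSMUSG00000024610, chromosome 18, 60803848 to 60812646), the invariant chain, was the most abundant class II transcript in both groups given IFN-gamma. It stood at 96.5, 96.5 and 92.5 FPKM in the combined libraries, 2743, 3295 and 3583 in IFN-gamma, 19.1 and 19.1 in Pam3CSK4, and 15.0, 16.5 and 16.1 in Control. The groups did not overlap, and the combined libraries lay nearer to Control than to IFN-gamma.

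The combined mean was 2.97% of the IFN-gamma mean, a log2 change of -5.09 ± 0.14 (SE, adjusted p = 9.34e-08). IFN-gamma alone raised Cd74 202-fold over Control on mean FPKM, by 7.76 ± 0.16 on the log2 scale (adjusted p = 3.78e-09). After Pam3CSK4 the same cytokine gave 4.99-fold over Pam3CSK4 alone, or 2.43 ± 0.15 (adjusted p = 1.22e-05). Pam3CSK4 against Control was not called, at 0.25 ± 0.14 (adjusted p = 0.168).

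The classical chains share the direction but not the starting level. H2-Ab1 (ENSMUSG00000073421, chromosome 17, 34263209 to 34269418), the beta chain of I-A, had a basal transcript, while H2-Aa (ENSMUSG00000036594, chromosome 17, 34282744 to 34287827), the alpha chain that pairs with it, and H2-Eb1 (ENSMUSG00000060586, chromosome 17, 34305877 to 34316199), the beta chain of I-E, were near 1 FPKM in Control. C57BL/6 mice are known to lack the I-E alpha chain. H2-Ea-ps, the I-E alpha pseudogene of this strain, had 1 count in all libraries, in the combined group.

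H2-Aa stood at 19.4, 19.3 and 17.2 FPKM in the combined libraries, 572, 654 and 729 in IFN-gamma, 1.13 and 0.729 in Pam3CSK4, and 0.935, 1.43 and 0.610 in Control. Pam3CSK4 and Control overlapped and the other groups lay apart. H2-Aa fell by 5.14 ± 0.32 on the log2 scale in the combined group against IFN-gamma (adjusted p = 4.37e-06), the largest fall among the members. It rose by 9.45 ± 0.39 in IFN-gamma against Control (adjusted p = 3.35e-07) and was not called in Pam3CSK4 against Control, at -0.12 ± 0.35 (adjusted p = 0.814). That last value changed sign without Control replicate 2 or Pam3CSK4 replicate 2.

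H2-Ab1 stood at 46.6, 47.0 and 44.5 FPKM in the combined libraries, 885, 919 and 1081 in IFN-gamma, 15.2 and 15.1 in Pam3CSK4, and 30.7, 33.4 and 25.9 in Control. No groups overlapped, and the Pam3CSK4 libraries were the lowest. It was the only classical chain that fell with Pam3CSK4 against Control, by 1.01 ± 0.17 on the log2 scale (adjusted p = 0.00132). In IFN-gamma against Control it rose by 5.09 ± 0.17 (adjusted p = 9.29e-08), the smallest rise of the classical chains. It fell by 4.40 ± 0.17 in the combined group against IFN-gamma (adjusted p = 2.74e-07) and ended 0.70 ± 0.15 above Control (adjusted p = 0.00367).

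H2-Eb1 stood at 44.6, 43.1 and 39.7 FPKM in the combined libraries, 1107, 1309 and 1455 in IFN-gamma, 2.12 and 1.85 in Pam3CSK4, and 1.52, 1.44 and 0.896 in Control. Groups did not overlap, and Pam3CSK4 was above Control. IFN-gamma against Control was 10.07 ± 0.29 on the log2 scale (adjusted p = 3.27e-08), and the combined group against IFN-gamma was -4.94 ± 0.22 (adjusted p = 6.15e-07). Pam3CSK4 against Control was 0.61 ± 0.26 (adjusted p = 0.0851). DESeq2 called that rise (0.66, adjusted p = 0.0493), as did limma on log2(FPKM + 0.1) (0.62, adjusted p = 0.0295). The other alternatives did not, among them edgeR without Control replicate 3 (0.36, adjusted p = 0.215). The overlapping predicted gene Gm20513 averaged 0.0318 FPKM in the combined group, 0.588 in IFN-gamma, and was listed at 0 in Pam3CSK4 and Control.

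**Figure D3:**
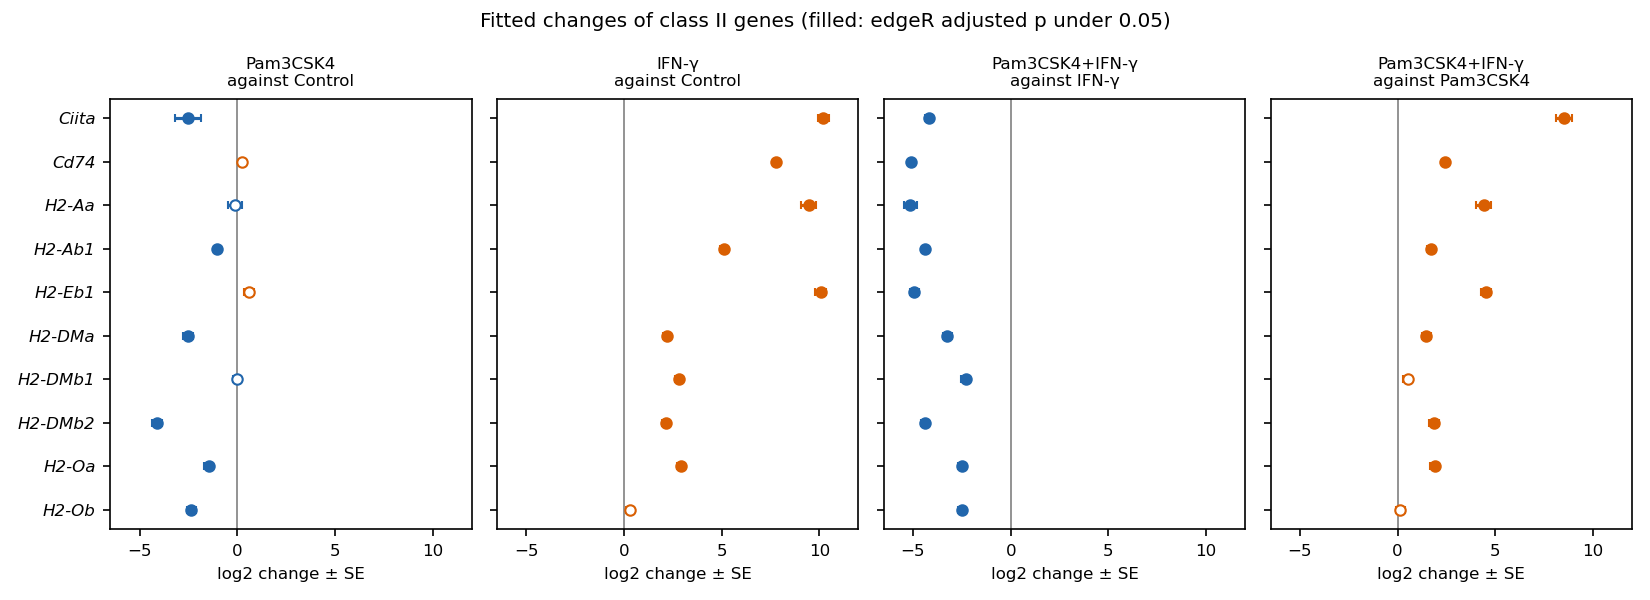
Fitted log2 change of each class II gene, a panel each for Pam3CSK4 against Control, for IFN-gamma against Control, for Pam3CSK4+IFN-gamma against IFN-gamma and for Pam3CSK4+IFN-gamma against Pam3CSK4. Orange is higher and blue lower, bars are standard errors, and filled points have an edgeR adjusted p under 0.05. All 10 points are filled and below 0 in Pam3CSK4+IFN-gamma against IFN-gamma, between -5.14 and -2.31.

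Among the genes of the endosomal chaperone, H2-DMa and H2-DMb1, but not H2-DMb2, moved over a smaller range than the classical chains. All genes of this chaperone, H2-DM, were already expressed in Control cells. H2-DMa (ENSMUSG00000037649, chromosome 17, 34135182 to 34139101), its alpha chain, stood at 35.1, 33.3 and 36.8 FPKM in the combined libraries, 332, 319 and 339 in IFN-gamma, 12.3 and 14.8 in Pam3CSK4, and 84.0, 88.4 and 54.6 in Control. Every group was separate, and Control lay above the combined group. Against IFN-gamma the combined group fell by 3.24 ± 0.22 on the log2 scale (adjusted p = 6.62e-06), and against Control it fell by 1.04 ± 0.20 (adjusted p = 0.00226). IFN-gamma against Control was 2.21 ± 0.21 (adjusted p = 4.39e-05) and Pam3CSK4 against Control was -2.51 ± 0.25 (adjusted p = 5.52e-05). The rise in the combined group against Pam3CSK4, 1.48 ± 0.24 (adjusted p = 0.00420), was not called without Pam3CSK4 replicate 1 (adjusted p = 0.0547).

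H2-DMb1 (ENSMUSG00000079547, chromosome 17, 34153072 to 34160230), the main beta chain of H2-DM, had the smallest change of the 10 in Pam3CSK4 against Control. It stood at 89.9, 87.0 and 88.9 FPKM in the combined libraries, 389, 449 and 474 in IFN-gamma, 64.8 and 69.0 in Pam3CSK4, and 69.7, 79.5 and 48.7 in Control. Pam3CSK4 and Control overlapped. The change in Pam3CSK4 against Control was -0.01 ± 0.22 on the log2 scale (adjusted p = 0.967), a value whose sign turned under 8 alternatives. IFN-gamma against Control was 2.81 ± 0.21 (adjusted p = 1.07e-05), and the combined group against IFN-gamma was -2.31 ± 0.21 (adjusted p = 4.03e-05), the smallest fall among the members.

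For H2-DMb1 the combined group was at 0.50 ± 0.20 against Control (adjusted p = 0.0639) and at 0.51 ± 0.22 against Pam3CSK4 (adjusted p = 0.224), neither of them called. Without combined replicate 3, IFN-gamma replicate 1 and Control replicate 3, the libraries rich in mural and fibroblast transcripts, both were called, at adjusted p = 0.0331 and 0.00739. Leaving out Control replicate 3 alone, that against Pam3CSK4 was called (adjusted p = 0.0125). The against-Control difference was also called by DESeq2, by limma and with RLE scaling.

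H2-DMb2 (ENSMUSG00000037548, chromosome 17, 34143307 to 34151553), the alternative beta chain gene next to H2-DMb1, stood at 0.511, 0.488 and 0.670 FPKM in the combined libraries, 11.2, 11.9 and 12.3 in IFN-gamma, 0.152 and 0.179 in Pam3CSK4, and 3.40, 2.66 and 2.52 in Control. The groups were all separate. It had the deepest fall of the 10 in Pam3CSK4 against Control, -4.12 ± 0.26 on the log2 scale (adjusted p = 5.06e-06), on 7 counts in each Pam3CSK4 library and 106 to 129 in Control libraries. The combined group stood at -4.41 ± 0.20 against IFN-gamma (adjusted p = 7.13e-07) and at -2.27 ± 0.19 against Control (adjusted p = 1.30e-05). In GENCODE M21, 27.2% of the 50-base stretches of H2-DMb1 occur in H2-DMb2 and 30.9% of those of H2-DMb2 occur in another gene, H2-DMb1 foremost. How shared reads were counted is not given in the sources used here, so the split between both genes is uncertain.

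H2-Oa and H2-Ob encode the chains of H2-DO, the inhibitor of H2-DM. H2-Oa (ENSMUSG00000024334, chromosome 17, 34092340 to 34095234) stood at 11.5, 12.6 and 12.7 FPKM in the combined libraries, 60.2, 71.1 and 75.1 in IFN-gamma, 3.68 and 3.42 in Pam3CSK4, and 10.2, 11.3 and 7.24 in Control. Its groups did not overlap. It rose by 2.93 ± 0.20 on the log2 scale in IFN-gamma against Control (adjusted p = 6.72e-06), fell by 1.46 ± 0.23 in Pam3CSK4 against Control (adjusted p = 0.000895) and fell by 2.50 ± 0.20 in the combined group against IFN-gamma (adjusted p = 1.98e-05). The antisense gene BC051537 covers H2-Oa and averaged at most 0.143 FPKM in any group, and without strand its reads cannot be told from those of H2-Oa.

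H2-Ob (ENSMUSG00000041538, chromosome 17, 34238903 to 34245907) stood at 1.76, 1.67 and 2.00 FPKM in the combined libraries, 10.0, 9.84 and 10.8 in IFN-gamma, 1.81 and 1.74 in Pam3CSK4, and 9.43, 10.6 and 6.40 in Control. The libraries formed 2 levels, a low one with Pam3CSK4 and a high one without it, whether or not IFN-gamma was given. The change in IFN-gamma against Control was 0.29 ± 0.20 on the log2 scale (adjusted p = 0.256), and that in the combined group against Pam3CSK4 was 0.14 ± 0.23 (adjusted p = 0.793). Pam3CSK4 against Control was -2.35 ± 0.24 (adjusted p = 7.65e-05) and the combined group against IFN-gamma was -2.50 ± 0.21 (adjusted p = 2.71e-05).

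Whether Pam3CSK4 acted more strongly with IFN-gamma than without it was tested as an interaction. The difference was negative and called for 6 of the 10 genes, among 16% of all tested genes called and 8.01% called lower, with a median of -1.99 against 0.06. Cd74 (-5.34 ± 0.19, adjusted p = 2.34e-06), H2-Eb1 (-5.55 ± 0.33, adjusted p = 3.42e-05), H2-Aa (-5.02 ± 0.45, adjusted p = 0.000280) and H2-Ab1 (-3.39 ± 0.22, adjusted p = 5.30e-05) led. H2-DMb1 followed at -2.30 ± 0.30 (adjusted p = 0.00155). H2-Oa, at -1.04 ± 0.29 (adjusted p = 0.0398), was not called without the filter or when any of 8 single libraries was left out.

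The other members were not called in the interaction. H2-DMa was at -0.73 ± 0.30 (adjusted p = 0.128), H2-DMb2 at -0.29 ± 0.33 (adjusted p = 0.657) and H2-Ob at -0.15 ± 0.30 (adjusted p = 0.756). Ciita was at -1.67 ± 1.28 (adjusted p = 0.592), on 1 count in the Pam3CSK4 group. Without Control replicate 3, H2-DMa was also called lower. With and without IFN-gamma the log2 changes with Pam3CSK4 were -3.24 and -2.51 for H2-DMa, -4.41 and -4.12 for H2-DMb2, and -2.50 and -2.35 for H2-Ob.

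The interaction was also fitted relative to H2-DMa. On that scale Cd74 (-4.53 ± 0.29, adjusted p = 5.31e-05), H2-Eb1 (-4.82 ± 0.25), H2-Aa (-4.34 ± 0.35), H2-Ab1 (-2.62 ± 0.21) and H2-DMb1 (-1.57 ± 0.19, adjusted p = 0.00110) were lower and none was higher, among 30.9% of genes called, 29.9% higher and 1.09% lower. H2-Ob was at 0.56 ± 0.20 (adjusted p = 0.0585, unadjusted 0.0203) and was called higher without Control replicate 3 or Pam3CSK4 replicate 1, at 0.55 and 0.73.

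The make-up of the class II transcript pool changed with treatment. In Control the DM genes led, H2-DMa with 75.7 ± 18.4 FPKM and H2-DMb1 with 66.0 ± 15.8 (SD, n = 3), which overlapped, followed by H2-Ab1 at 30.0 and Cd74 at 15.8. In IFN-gamma the order was Cd74 at 3207, H2-Eb1 at 1290.4, H2-Ab1 at 962, H2-Aa at 652, H2-DMb1 at 437, H2-DMa at 329.9, H2-Oa at 68.8, Ciita at 43.7, H2-DMb2 at 11.8 and H2-Ob at 10.2 FPKM, and no neighbours in it overlapped. In Pam3CSK4 H2-DMb1 led at 66.9 FPKM, ahead of Cd74 at 19.1, H2-Ab1 at 15.2 and H2-DMa at 13.6, without overlap. The combined group had Cd74 at 95.2 and H2-DMb1 at 88.6 FPKM in front, then H2-Ab1 at 46.0 and H2-Eb1 at 42.5, which overlapped, and H2-DMa at 35.1.

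Ratios within a library do not depend on how libraries are scaled to each other. H2-Aa over H2-Ab1, the I-A alpha over beta chain, was 0.405 ± 0.0151 in the combined group, 0.677 ± 0.0327 in IFN-gamma (SD, n = 3 each), 0.0613 ± 0.0185 in Pam3CSK4 (n = 2) and 0.0323 ± 0.00978 in Control (n = 3). H2-Eb1 over H2-Ab1 was 0.923 ± 0.0328 in the combined group, 1.34 ± 0.0875 in IFN-gamma, 0.131 ± 0.0123 in Pam3CSK4 and 0.0424 ± 0.00744 in Control. Cd74 over H2-Ab1 was 2.07 ± 0.0128 in the combined group, 3.33 ± 0.245 in IFN-gamma, 1.26 ± 0.00428 in Pam3CSK4 and 0.533 ± 0.0745 in Control. In all of them the IFN-gamma libraries were the highest and the combined libraries came next, with no overlap between groups.

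The alpha chain gene of the chaperone, H2-DMa, moved the other way relative to the classical chain H2-Ab1. Its partner H2-DMb1 did not in Pam3CSK4 against Control, where it rose relative to H2-Ab1 on counts (1.02 ± 0.12 on the log2 scale). H2-DMa over H2-Ab1 was 0.764 ± 0.0602 in the combined group, 0.345 ± 0.0305 in IFN-gamma, 0.894 ± 0.118 in Pam3CSK4 and 2.50 ± 0.341 in Control. Its lowest libraries were those given IFN-gamma alone and its highest were Control, and combined replicate 3, at 0.828, reached into the Pam3CSK4 range of 0.810 to 0.977.

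These ratios were also tested on counts, with H2-Ab1 as the scale of each library in place of its total. In the combined group against IFN-gamma, the ratio to H2-Ab1 fell for Cd74 (-0.69 ± 0.10 on the log2 scale, adjusted p = 5.60e-05), H2-Aa (-0.74 ± 0.19, adjusted p = 0.00337) and H2-Eb1 (-0.54 ± 0.12, adjusted p = 0.00110). It rose for H2-DMa (1.15 ± 0.14, adjusted p = 1.02e-05), H2-DMb1 (2.08 ± 0.11, adjusted p = 1.47e-08), H2-Oa (1.90 ± 0.12, adjusted p = 3.69e-08) and H2-Ob (1.89 ± 0.14, adjusted p = 1.43e-07). Because H2-Ab1 itself changed so much, 97.7% of all genes were called on this scale, 97.6% higher, and the counts of members are therefore no result in themselves. The 3 that fell were among 0.101% of genes that did, 11 in all.

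Ciita and H2-DMb2 were not called on that scale. The ratio of Ciita to H2-Ab1 differed by 0.19 ± 0.21 on the log2 scale (adjusted p = 0.395), and its FPKM ratio was 0.0522 ± 0.00324 in the combined group and 0.0457 ± 0.00841 in IFN-gamma (SD, n = 3 each). A p over the threshold does not show that the ratio was the same. H2-DMb2 differed by -0.02 ± 0.20 (adjusted p = 0.904).

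In IFN-gamma against Control, 98.9% of genes were called relative to H2-Ab1, 0.485% higher and 98.4% lower. Ciita (5.11 ± 0.32 on the log2 scale), H2-Eb1 (4.98 ± 0.14), H2-Aa (4.39 ± 0.23) and Cd74 (2.64 ± 0.11) were higher, all with adjusted p of 3.80e-08 or less. The DM and DO genes were lower, at -2.85 ± 0.14 for H2-DMa, -2.26 ± 0.11 for H2-DMb1, -2.96 ± 0.20 for H2-DMb2, -2.14 ± 0.12 for H2-Oa and -4.77 ± 0.15 for H2-Ob. In Pam3CSK4 against Control, with 73.5% called, 69.2% higher and 4.33% lower, H2-Eb1 (1.63 ± 0.15), Cd74 (1.24 ± 0.11), H2-DMb1 (1.02 ± 0.12) and H2-Aa (0.93 ± 0.24, adjusted p = 0.00622) were higher relative to H2-Ab1. H2-DMa (-1.48 ± 0.16), H2-DMb2 (-3.14 ± 0.27), H2-Ob (-1.32 ± 0.15) and H2-Oa (-0.43 ± 0.13, adjusted p = 0.0130) were lower. The H2-Aa call was lost without Pam3CSK4 replicate 1 (adjusted p = 0.103) and the H2-Oa call without replicate 2 (adjusted p = 0.0848).

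**Figure D4:**
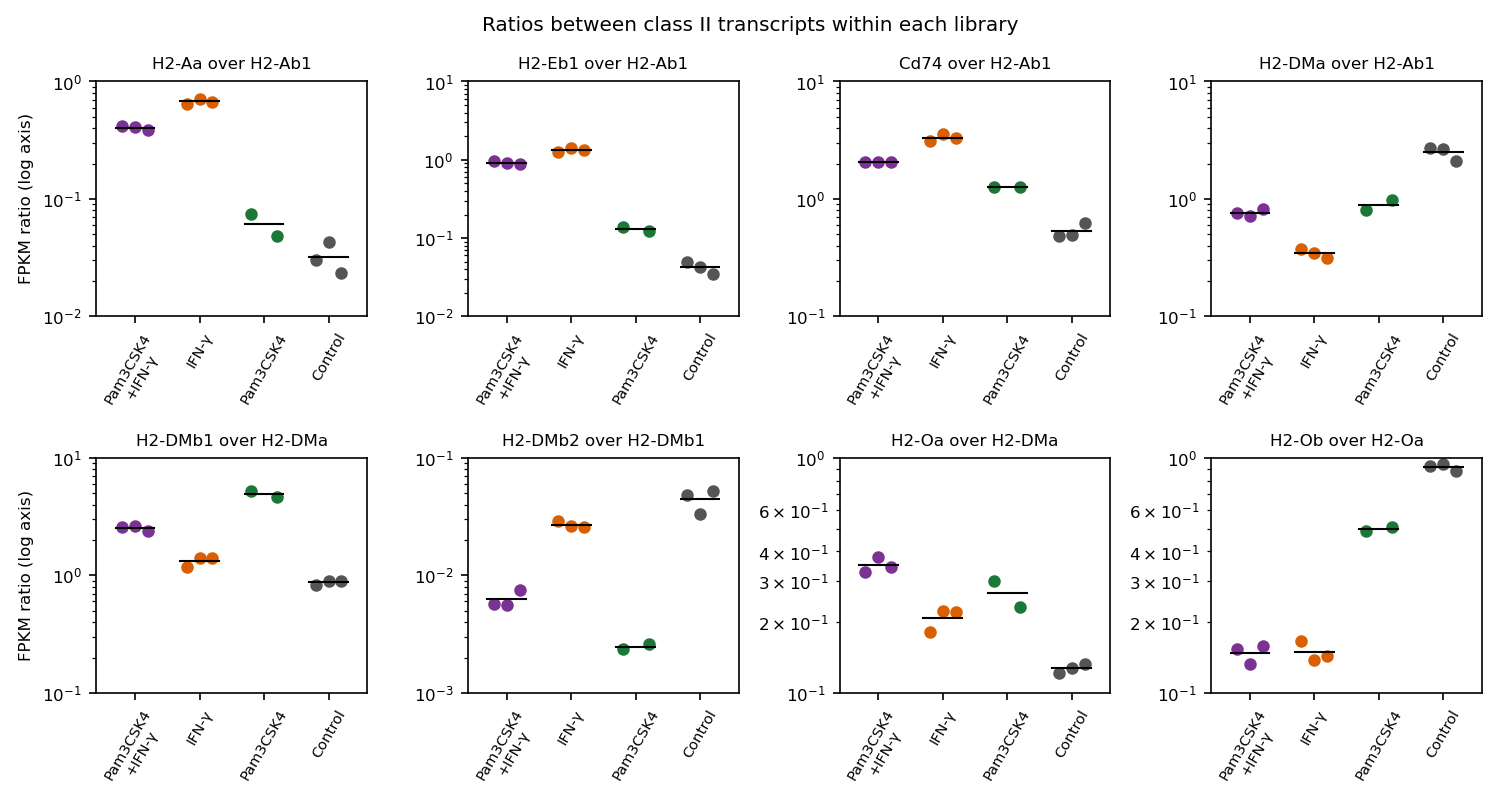
Ratios of FPKM between class II genes within each library (log axes, a separate range for each ratio), for the Pam3CSK4+IFN-gamma, IFN-gamma, Pam3CSK4 and Control groups. Points are libraries and bars are group means. H2-Aa, H2-Eb1 and Cd74 over H2-Ab1 are highest in IFN-gamma, H2-DMb1 over H2-DMa is highest in Pam3CSK4 with a mean of 4.96, and H2-Ob over H2-Oa is near 0.15 in both groups given IFN-gamma.

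Within H2-DM, H2-DMb1 was higher relative to H2-DMa wherever a stimulus was given, and H2-DMb2 was not. In Pam3CSK4 against Control this went with a fall of H2-DMa (-2.51), as H2-DMb1 itself was not called (-0.01). H2-DMb1 over H2-DMa was 2.56, 2.61 and 2.41 in the combined libraries, 1.17, 1.41 and 1.40 in IFN-gamma, 5.26 and 4.67 in Pam3CSK4, and 0.830, 0.900 and 0.892 in Control. The groups did not overlap, and Control was the only group in which H2-DMa exceeded H2-DMb1 in FPKM. Counts, which are not scaled to length, were near level in IFN-gamma, at 36552 for H2-DMa and 36486 for H2-DMb1. The sequence that H2-DMb1 shares with H2-DMb2 limits this ratio too. On counts scaled to H2-DMa, H2-DMb1 was higher by 2.51 ± 0.14 on the log2 scale in Pam3CSK4 against Control (adjusted p = 1.68e-07), by 0.60 ± 0.13 in IFN-gamma against Control (adjusted p = 0.000827) and by 0.93 ± 0.13 in the combined group against IFN-gamma (adjusted p = 2.68e-05). On that scale 92.6% of all genes were called in Pam3CSK4 against Control (91.8% higher and 0.759% lower), 95.7% in IFN-gamma against Control (1.53% higher and 94.1% lower) and 96.7% in the combined group against IFN-gamma (96.5% higher and 0.229% lower).

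The beta chain genes differed from each other as well. On counts scaled to H2-DMa, H2-DMb2 was lower in Pam3CSK4 against Control (-1.67 ± 0.29 on the log2 scale, adjusted p = 0.000204). It was also lower in the combined group against IFN-gamma (-1.18 ± 0.22, adjusted p = 0.000336). In IFN-gamma against Control it was not called (-0.12 ± 0.21, adjusted p = 0.589). H2-DMb2 over H2-DMb1 was 0.00628 ± 0.00109 in the combined group, 0.0271 ± 0.00153 in IFN-gamma (SD, n = 3 each), 0.00247 ± 0.000176 in Pam3CSK4 (n = 2) and 0.0447 ± 0.00989 in Control (n = 3). All groups given Pam3CSK4 lay below all groups not given it. The shared sequence of both genes, described above, limits this ratio.

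For H2-DO, H2-Ob over H2-Oa was 0.148 ± 0.0138 in the combined group, 0.149 ± 0.0147 in IFN-gamma (SD, n = 3 each), 0.499 ± 0.0121 in Pam3CSK4 (n = 2) and 0.917 ± 0.0307 in Control (n = 3). The combined and IFN-gamma libraries overlapped, and the other groups were separate. Relative to H2-DMa, H2-Ob was not called in Pam3CSK4 against Control (0.18 ± 0.15 on the log2 scale, adjusted p = 0.270) and was lower in IFN-gamma against Control (-1.91 ± 0.14, adjusted p = 7.14e-07). H2-Oa over H2-DMa was 0.351 ± 0.0268 in the combined group, 0.209 ± 0.0235 in IFN-gamma, 0.265 ± 0.0475 in Pam3CSK4 and 0.127 ± 0.00558 in Control. On counts it rose relative to H2-DMa in Pam3CSK4 against Control (1.06 ± 0.17, adjusted p = 0.000150), in IFN-gamma against Control (0.71 ± 0.15, adjusted p = 0.00104) and in the combined group against IFN-gamma (0.75 ± 0.15, adjusted p = 0.000701).

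The route from the IFN-gamma receptor to Ciita was followed in 10 genes, all tested. In IFN-gamma against Control 6 rose and 1 fell, and in the combined group against IFN-gamma 1 rose and 5 fell, with list medians of 0.74 and -0.47 against -0.07 and -0.02 over all genes. Of all tested genes, 20% were called higher and 21.6% lower in IFN-gamma against Control, and 17% higher and 17.2% lower in the combined group against IFN-gamma.

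Irf1, an interferon-induced factor that acts on the Ciita promoter, averaged 88.2 ± 6.17 FPKM in the combined group, 146 ± 16.3 in IFN-gamma (SD, n = 3 each), 5.10 ± 0.716 in Pam3CSK4 (n = 2) and 6.67 ± 0.538 in Control (n = 3). In IFN-gamma against Control it rose by 4.55 ± 0.16 on the log2 scale (adjusted p = 1.21e-07). It fell by 0.74 ± 0.14 in the combined group against IFN-gamma (adjusted p = 0.00325), a smaller log2 fall than the -4.20 of Ciita. Whether the fall of Irf1 bears on that of Ciita was not tested. Irf8, a macrophage interferon factor, fell by 1.13 ± 0.18 (adjusted p = 0.00130) and Ifngr1, the ligand-binding receptor chain, by 0.94 ± 0.15 (adjusted p = 0.00138) in that comparison, while the kinase Jak2 rose by 1.90 ± 0.10 (adjusted p = 1.86e-06). Irf8 rose by 1.84 ± 0.19 in IFN-gamma against Control (adjusted p = 6.60e-05). In Pam3CSK4 against Control Jak2 rose by 2.61 ± 0.11 (adjusted p = 4.98e-07) and Ifngr1 fell by 1.60 ± 0.18 (adjusted p = 0.000125).

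Socs1, the inhibitor of JAK kinases, averaged 280 ± 12.1 FPKM in the combined group, 438 ± 23.2 in IFN-gamma, 16.5 ± 3.31 in Pam3CSK4 and 1.33 ± 0.335 in Control. It rose by 3.62 ± 0.17 on the log2 scale in Pam3CSK4 against Control (adjusted p = 9.56e-07) and by 8.47 ± 0.19 in IFN-gamma against Control (adjusted p = 5.31e-09). Over all 10 genes, Pam3CSK4 against Control had 2 higher and 4 lower, with a median of -0.29, among 20% of all tested genes called higher and 21.4% lower. In the interaction Socs1 was at -4.28 ± 0.22 (adjusted p = 1.32e-05) and Jak2 at -0.72 ± 0.15 (adjusted p = 0.0126).

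Factors that bind the X and Y elements were followed in 7 genes. Of these, 2 rose and 1 fell in IFN-gamma against Control, none rose and 2 fell in Pam3CSK4 against Control, and none rose and 2 fell in the combined group against IFN-gamma. Their median log2 changes were 0.10, 0.02 and -0.11, against -0.07, -0.04 and -0.02 over all genes. The called shares of all tested genes in those comparisons were 41.6%, 41.4% and 34.2%, and the counts do not set these factors apart from them. Rfx5, the large RFX subunit, averaged 1.35 ± 0.0173 FPKM in the combined group, 2.55 ± 0.281 in IFN-gamma, 1.17 ± 0.00540 in Pam3CSK4 and 1.09 ± 0.146 in Control. It rose by 1.34 ± 0.10 on the log2 scale in IFN-gamma against Control (adjusted p = 8.34e-06) and fell by 0.93 ± 0.10 in the combined group against IFN-gamma (adjusted p = 8.75e-05), with an interaction of -1.02 ± 0.14 (adjusted p = 0.00221). Nfyb, a subunit of NF-Y, rose by 0.43 ± 0.12 (adjusted p = 0.0166) in IFN-gamma against Control and fell by 0.47 ± 0.12 in the combined group against IFN-gamma (adjusted p = 0.0132). Creb1 fell by 0.80 ± 0.13 in IFN-gamma against Control (adjusted p = 0.00102). In Pam3CSK4 against Control Creb1 fell by 0.46 ± 0.14 (adjusted p = 0.0284) and Nfyb by 0.45 ± 0.13 (adjusted p = 0.0236).

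**Figure D5:**
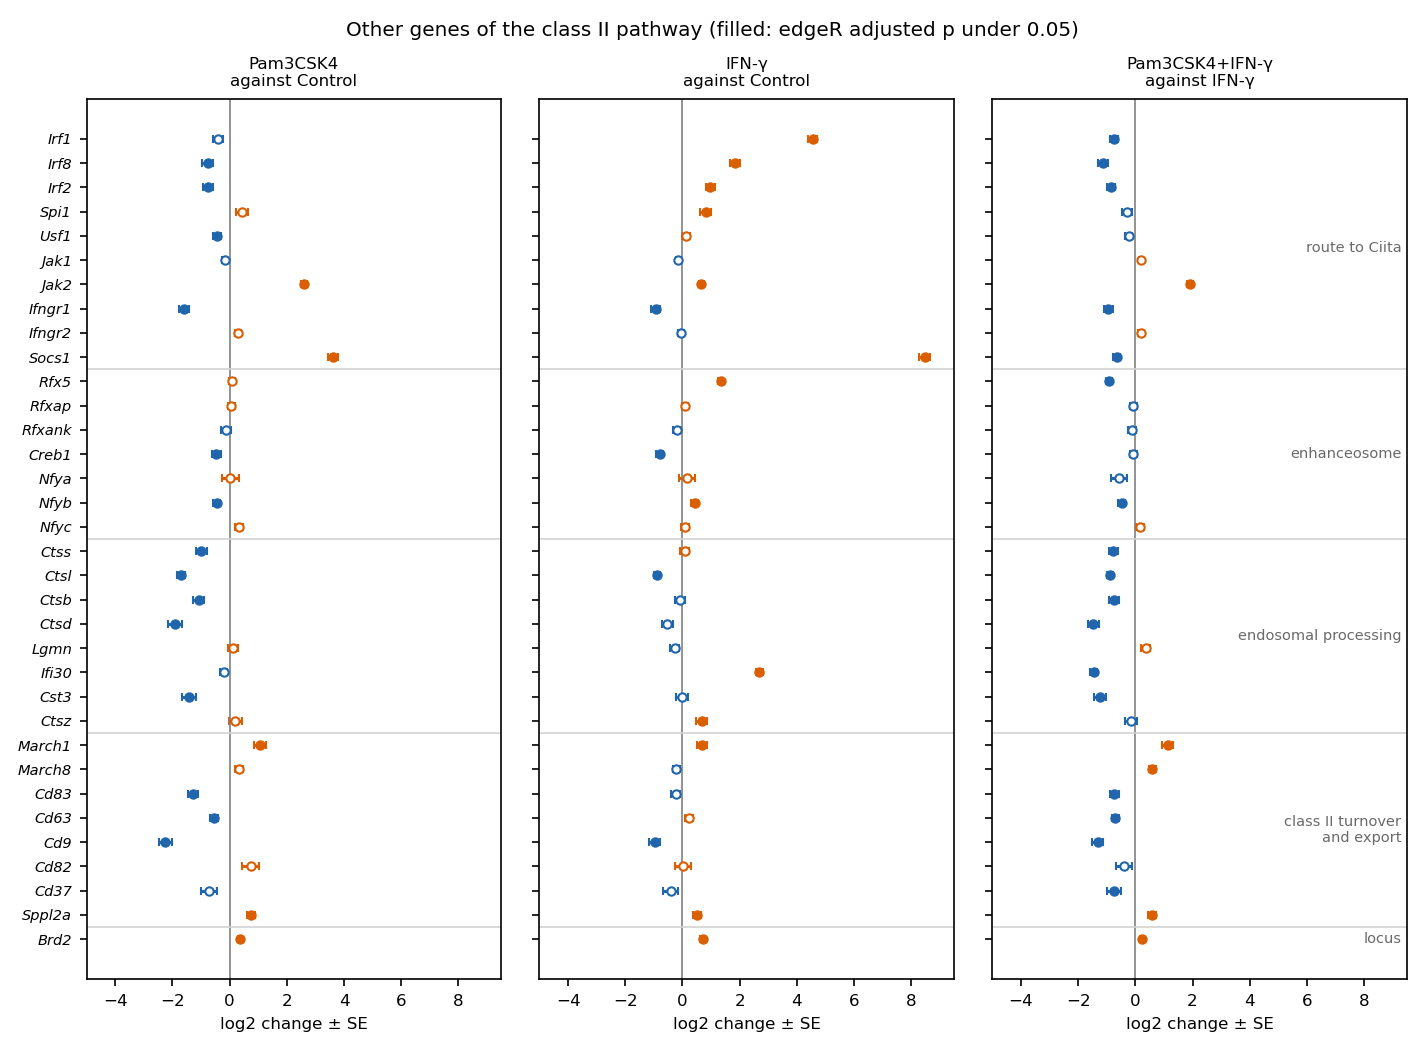
Log2 change (bars, standard errors) of tested genes of the route to Ciita, the factors on X and Y elements (enhanceosome), endosomal processing, class II turnover and export, and Brd2 of the locus, a panel each for Pam3CSK4 against Control, for IFN-gamma against Control and for Pam3CSK4+IFN-gamma against IFN-gamma. Orange is higher, blue lower, and filled points have an edgeR adjusted p under 0.05. Most points lie between -2 and 2, with Socs1 at 8.47 in IFN-gamma against Control.

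Most of the genes of endosomal antigen processing fell with Pam3CSK4, with IFN-gamma and without it. Of 8, none rose and 5 fell in Pam3CSK4 against Control (median -1.04), and none rose and 6 fell in the combined group against IFN-gamma (median -0.83). In IFN-gamma against Control 2 rose and 1 fell (median -0.05). Over all genes the medians were -0.04, -0.02 and -0.07 in those comparisons. The shares of all tested genes called were 41.4% (21.4% lower), 34.2% (17.2% lower) and 41.6%, and the count in IFN-gamma against Control lay near its share. Ctsd, an aspartic protease of lysosomes, fell by 1.90 ± 0.24 on the log2 scale in Pam3CSK4 against Control (adjusted p = 0.000269) and fell by 1.47 ± 0.21 in the combined group against IFN-gamma (adjusted p = 0.000594). Cst3, a cathepsin inhibitor, fell by 1.42 ± 0.24 (adjusted p = 0.00142) and fell by 1.22 ± 0.21 (adjusted p = 0.00176) in the same comparisons. Ctsl, a cysteine protease of lysosomes, fell by 1.70 ± 0.13 in Pam3CSK4 against Control (adjusted p = 1.26e-05) and by 0.89 ± 0.11 in IFN-gamma against Control (adjusted p = 0.000214), with an interaction of 0.80 ± 0.16 (adjusted p = 0.0116). Ctsz, a carboxypeptidase, rose by 0.67 ± 0.21 in IFN-gamma against Control (adjusted p = 0.0274).

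Ifi30, the thiol reductase that opens disulfide bonds of antigens, averaged 336 ± 15.2 FPKM in the combined group, 917 ± 70.9 in IFN-gamma, 134 ± 15.0 in Pam3CSK4 and 152 ± 7.21 in Control. It rose by 2.69 ± 0.12 on the log2 scale in IFN-gamma against Control (adjusted p = 4.51e-07), fell by 1.46 ± 0.12 in the combined group against IFN-gamma (adjusted p = 1.97e-05) and had an interaction of -1.25 ± 0.17 (adjusted p = 0.00200).

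Of 8 genes of class II turnover and export, 3 rose and 4 fell in the combined group against IFN-gamma, 2 rose and 1 fell in IFN-gamma against Control, and 2 rose and 3 fell in Pam3CSK4 against Control. Their medians were -0.54, -0.10 and -0.11, against -0.02, -0.07 and -0.04 over all genes. The called shares of all tested genes were 34.2%, 41.6% and 41.4%, and the count in IFN-gamma against Control lay near its share. Cd9, a tetraspanin, had the largest called change of the list. It fell by 1.32 ± 0.19 on the log2 scale in the combined group against IFN-gamma (adjusted p = 0.000780), by 0.96 ± 0.19 in IFN-gamma against Control (adjusted p = 0.00344) and by 2.25 ± 0.23 in Pam3CSK4 against Control (adjusted p = 7.57e-05). Sppl2a, a membrane protease that clears Cd74 fragments, rose by 0.52 ± 0.14 in IFN-gamma against Control (adjusted p = 0.0142).

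March1, the ubiquitin ligase that sends surface class II to lysosomes, averaged 6.38 ± 0.246 FPKM in the combined group, 2.91 ± 0.616 in IFN-gamma, 4.07 ± 0.208 in Pam3CSK4 and 1.92 ± 0.345 in Control. The change was 1.13 ± 0.19 on the log2 scale in the combined group against IFN-gamma (adjusted p = 0.00153), 1.05 ± 0.20 in Pam3CSK4 against Control (adjusted p = 0.00296) and 0.68 ± 0.19 in IFN-gamma against Control (adjusted p = 0.0160). Cd83, which opposes MARCH1 on the same chains, fell by 0.74 ± 0.15 in the combined group against IFN-gamma (adjusted p = 0.00468) and fell by 1.29 ± 0.17 in Pam3CSK4 against Control (adjusted p = 0.000370).

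Other genes of the class II locus were mostly silent. H2-Eb2, whose promoter stretch is shown above, had 6 counts over the IFN-gamma libraries and none in the others, and Btnl2 averaged at most 0.0790 FPKM in any group. Brd2, a widely expressed chromatin reader that overlaps H2-DMa in GENCODE M21, averaged 30.7 ± 0.966 FPKM in the combined group, 26.0 ± 1.48 in IFN-gamma, 22.3 ± 0.752 in Pam3CSK4 and 17.1 ± 1.21 in Control. Its change in the combined group against IFN-gamma was 0.23 ± 0.08 on the log2 scale (adjusted p = 0.0459), opposite in sign to that of H2-DMa. It also rose by 0.70 ± 0.08 in IFN-gamma against Control (adjusted p = 0.000118) and by 0.37 ± 0.09 in Pam3CSK4 against Control (adjusted p = 0.00793).

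The genes whose pattern over the 11 libraries was most like that of H2-Ab1, by the root mean square difference of their centred log2 abundances, were Clec9a (0.487), RP24-127M20.8 (0.520), Btnl6 (0.640), Timd4 (0.690) and Naaa (0.707), against a median of 2.37 over all tested genes. The nearest member to H2-Ab1 was H2-Oa (0.884) and the farthest was Ciita (2.35). Those most like Ciita were Tgtp1 (0.624), Il12rb1 (0.773), Pdyn (0.984), F830016B08Rik (1.14) and C4b (1.33), against a median of 4.32. H2-Eb1 (0.797) and H2-Aa (0.839) were the members nearest to Ciita, and both lay nearer to it than to H2-Ab1, at 2.06 and 1.86. The distances describe these libraries and share their depth. In Pam3CSK4, RP24-127M20.8 and Btnl6 were at 0 FPKM, and Clec9a and Timd4 averaged 0.0294 and 0.0400. The prior count of 2 shrinks changes at such levels, which limits what the nearness of these genes to H2-Ab1 means. Ciita and the genes most like it were also very low without IFN-gamma.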

How the data were processed

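Total RNA of 11 libraries of cultured mouse microglia was sequenced. The authors deposited whole-number read counts and FPKM for 34745 Ensembl genes, per the file headers. The deposited FPKM equals the count divided by the library total times 1 constant per gene, to a largest relative deviation of 7.24e-05 at 10 or more counts. The mm10 build, Cuffdiff, Cufflinks 2.1.1 and TopHat2 2.1.0 are named, without roles, per the submitters' processing notes. For the counting tool, the strand setting and shared reads, nothing is given in the sources used here, so reads of overlapping or similar genes may be split in unknown ways. Counting precision follows from 15033702 to 20321017 counts per library. No per-sample column was left out.

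Groups follow the sample titles. The test was the quasi-likelihood one of edgeR 4.0.16 under R 4.3.3 (TMM scaling, 1 fit of 4 group means, no replicate block, two-sided, Benjamini-Hochberg over the 10938 genes that reached 1 FPKM in 2 or more libraries, threshold 0.05). These genes held at least 97.97% of counts. A standard error is the absolute log2 change over the square root of F. For the interaction, the effect of Pam3CSK4 in cells not given IFN-gamma was subtracted from its effect in cells given it. Ratio fits used the log count of H2-Ab1 or H2-DMa as the offset. The script was tested on simulated counts. Alternatives were DESeq2 1.42.0, RLE scaling, limma 3.58.1 on log2(FPKM + 1) and log2(FPKM + 0.1), no filter, a replicate block, and leaving out libraries. The members and lists were chosen with earlier results of these data known. All members are named; of each other pathway list up to 3 with the largest called change are named, comparison by comparison, and every gene of the locus. For the combined group against Pam3CSK4 and against Control, which that rule covered too, list genes are not described. Genes like a member in pattern are the nearest 5, on edgeR's depth-scaled log2 counts with a prior count of 2. An item of the pathway lists is not reported here. Irf1 is also given in the combined group against IFN-gamma, where it was not among the largest. Promoter windows are RefSeq's on GRCm38.p6, and the counting interval is an exact 95% one. Replicate numbers, which the labels tie to nothing, were checked by the correlation of deviations from group means. All 3 same-numbered pairs of the combined group and Control were correlated over 0.1 (0.440 to 0.715), and replicate 3 of both was rich in mural and fibroblast transcripts. In no other pair of groups were all pairs over 0.1, and 6 of 15 pairs were in all, with a range of -0.719 to 0.715.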

Additional observations from a re-analysis of the deposited data

Results flagged for a closer look

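In 6 class II genes the effect of Pam3CSK4 differed between cells given IFN-gamma and cells not given it, by a test of the difference itself in edgeR, among 16% of all tested genes called and 8.01% called lower. With the effect in cells not given the cytokine subtracted from that in cells given it, the log2 difference was -5.34 for Cd74, -5.02 for H2-Aa, -3.39 for H2-Ab1, -5.55 for H2-Eb1, -2.30 for H2-DMb1 and -1.04 for H2-Oa. The call of H2-Oa (adjusted p = 0.0398) was lost without the filter on low values and when any of 8 single libraries was left out. For each of these genes all combined libraries lay below all IFN-gamma libraries, which are not paired with them. In Pam3CSK4 against Control only H2-Ab1 and H2-Oa of these fell.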

How the results depend on the processing

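The count of members called in IFN-gamma against Control (9 higher) and in the combined group against IFN-gamma (10 lower) was the same under every alternative run. In Pam3CSK4 against Control 5 to 6 were lower with 1 library left out, and 1 was higher with DESeq2 and 1 with limma on log2(FPKM + 0.1), against 0 in the edgeR fit. In the interaction of ratios to H2-DMa, 0 to 1 were higher with 1 library left out, the 1 being H2-Ob without Control replicate 3 or Pam3CSK4 replicate 1. The combined group against Pam3CSK4 had 7 to 9 higher, that against Control 5 to 7 higher, and the interaction 5 to 7 lower with 1 library left out and up to 9 lower with limma.

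Values that were not called and changed sign were these, on the log2 scale. H2-Aa in Pam3CSK4 against Control ran over -0.46 to 0.29 with 1 library left out, and was above 0 without Control replicate 2 and, at 0.15, without Pam3CSK4 replicate 2. H2-DMb1 in that comparison was 0.014 with DESeq2, 0.013 with RLE scaling, 0.049 and 0.048 with limma at pseudocounts of 0.1 and 1, and 0.059 without the filter, and ran over -0.23 to 0.18 with 1 library left out. With 1 library left out, the interaction of Ciita ran over -2.41 to 0.63, above 0 without Pam3CSK4 replicate 1. Over all alternatives its lowest value was -3.73. The interaction of H2-Ob ran over -0.35 to 0.068, above 0 without Control replicate 3. The ratio of H2-DMb2 to H2-Ab1 in the combined group against IFN-gamma ran over -0.21 to 0.076. Relative to H2-DMa, Ciita in Pam3CSK4 against Control ran over -5.69 to 0.65 and was 0.22 without the 3 libraries rich in mural and fibroblast transcripts, H2-DMb2 in IFN-gamma against Control ran over -0.28 to 0.023 and was 0.064 without those 3, and the interaction of Ciita ran over -1.60 to 4.74. The cause was not tested.

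With a replicate block, which pairs libraries by a number the labels tie to nothing, the fall of Ciita in Pam3CSK4 against Control (-2.52, adjusted p = 0.0517) and the interaction of H2-Oa (-1.02, adjusted p = 0.0715) were not called, and no other member's call changed, including any in the combined group against Control, where all same-numbered pairs deviated together. The share of all tested genes called in the combined group against Pam3CSK4 was 9.1% in the edgeR fit, 14.0% with DESeq2, 3.24% with no filter, 3.76 and 3.70% without Pam3CSK4 replicates 1 and 2, 18.3% without Control replicate 3 and 19.4% without the 3 libraries. In the interaction it was 16.0%, against 4.76% with no filter, 6.07% without Pam3CSK4 replicate 2 and 29.5% without Control replicate 3. By limma on log2(FPKM + 0.1) the median of all genes in the combined group against Pam3CSK4 was -0.10, with 598 higher and 653 lower against 663 and 332 in the edgeR fit. With limma at a pseudocount of 1 the changes of low genes shrank, that of Ciita in Pam3CSK4 against Control to -0.047 and that of H2-DMb2 to -1.72. Depth limits Ciita and H2-DMb2 in Pam3CSK4 libraries.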
